A study of Homo sapiens with 6 samples.

Results

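A set of 5 lymphocyte receptor genes was described in HepG2-hCAR cells: KLRC2, KLRC3, KLRC4 and KLRK1, which encode receptors of the NKG2 group of natural killer cells, and CD3D, which encodes CD3 delta of T cells. They were found by symbol among the 11456 genes of an FPKM table, and all 5 were listed. They had been chosen by these same FPKM values, which were higher with doxycycline than with vehicle, so the difference is given as a description and without a test. HepG2 is a human hepatocellular carcinoma line. HepG2-hCAR is 1 clone of it, grown from a single puromycin-selected cell, that carries a lentiviral full-length NR1I3 cDNA, coding for human CAR (the constitutive androstane receptor), under doxycycline control. The 3 doxycycline libraries came from cells given 1 µg/ml of this antibiotic for 72 h, and the 3 vehicle libraries came from the same clone given vehicle for 72 h. Both groups thus carry the inducible cDNA, and no library here had doxycycline without it, so the antibiotic and the receptor cannot be told apart.

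FPKM divides the fragments of a gene by transcript length and by library size. It summed to 204318 to 209372 per library over all listed entries. No counts were used, so sequencing depth is unknown and no counting error is given. NR1I3 was at 331, 317 and 316 FPKM in the doxycycline libraries, against 3.15, 3.01 and 3.56 FPKM in the vehicle libraries, which fits their labels. Whether a group's 3 libraries came from separate cultures is not stated, so the p-values below speak of the spread among these libraries alone, and that spread may be technical.

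NKG2 receptors are C-type lectin-like proteins of natural killer cells and some T cells. KLRC2 encodes NKG2C, an activating receptor that pairs with CD94 (KLRD1), recognizes HLA-E and signals through the adaptor DAP12 (TYROBP). KLRC3 encodes NKG2E, a close relative of NKG2C, and KLRC4 encodes NKG2F, whose role is less well known. KLRK1 encodes NKG2D, which recognizes stress-induced ligands such as MICA and MICB and signals in humans through the adaptor DAP10 (HCST). CD3D encodes CD3 delta, which pairs with CD3 epsilon in the T cell receptor complex. That complex signals through the kinases LCK and ZAP70.

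On GRCh37 all members are on the minus strand. KLRK1 (ENSG00000213809) spans 10524952 to 10544473 of chromosome 12, KLRC4 (ENSG00000183542) 10559981 to 10562356, KLRC3 (ENSG00000205810) 10564911 to 10573194 and KLRC2 (ENSG00000205809) 10579453 to 10594899. These 4 genes lie within 69.9 kb, with gaps of 15.5 kb between KLRK1 and KLRC4, 2.55 kb between KLRC4 and KLRC3 and 6.26 kb between KLRC3 and KLRC2. CD3D (ENSG00000167286) lies on chromosome 11, at 118209669 to 118213459. An additional listed entry, the read-through gene KLRC4-KLRK1 (10524952 to 10562745), covers both KLRK1 and KLRC4.

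The KLRC genes are closely related copies, which bears on how fragments can be assigned to them. The first 90 coding bases of KLRC2, KLRC3, KLRC4 and the relative KLRC1 (NKG2A) are shown because they let the copies be compared by eye. They were read 5′ to 3′ from GENCODE 29 transcripts on the minus strand of GRCh38, at chr12:10435897-10435986 for KLRC2, chr12:10420461-10420550 for KLRC3, chr12:10409486-10409575 for KLRC4 and chr12:10451067-10451156 for KLRC1. Capitals mark bases that differ from KLRC2.
KLRC2: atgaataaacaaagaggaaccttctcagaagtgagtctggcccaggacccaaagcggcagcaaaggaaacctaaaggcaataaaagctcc
KLRC3: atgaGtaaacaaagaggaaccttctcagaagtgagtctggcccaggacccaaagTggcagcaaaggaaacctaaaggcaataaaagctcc
KLRC4: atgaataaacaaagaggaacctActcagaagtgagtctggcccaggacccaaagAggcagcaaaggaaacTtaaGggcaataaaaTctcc
KLRC1: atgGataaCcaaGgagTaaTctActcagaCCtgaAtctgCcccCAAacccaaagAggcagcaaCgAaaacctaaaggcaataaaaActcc

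KLRC3 differs from KLRC2 at 2 of these 90 bases, KLRC4 at 5 and KLRC1 at 17. Over the aligned parts of the whole coding sequences, KLRC2 was 96.4% identical to KLRC3, 93.3% to KLRC4 and 88.4% to KLRC1. KLRK1 stood apart from these copies. Its coding sequence was 62.3% identical to that of KLRC2, close to the 64.0% between KLRC2 and the unrelated CD3D. The extent of shared sequence was also counted over all GENCODE 29 transcripts, as the share of each gene's distinct runs of 50 bases that occur in a transcript of another gene. This share was 48.2% for KLRC2, 63.9% for KLRC3, 47.9% for KLRC4 and 60.9% for KLRK1. For CD3D it was 0.0%, with 0 of 1021 runs shared. KLRK1 shared 60.4% of its runs with the read-through KLRC4-KLRK1, and KLRC4 shared 47.9% of its own with it. KLRC3 shared 63.2% with ENSG00000255641, a read-through gene that joins KLRC2 and KLRC3 and was not analysed here. Between the copies themselves the shares were smaller. KLRC3 shared 19.8% with KLRC2, KLRC2 shared 19.7% with KLRC1 and 13.9% with KLRC3, and KLRC4 shared 7.4% with KLRC2. The KLRC values below are therefore partly uncertain in how they divide between copies. The division of all 4 NKG2 genes from the read-through genes is uncertain over more of their sequence, except for KLRC2 where both apply. Their part in the differences between groups was not tested.

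**Figure D1:**
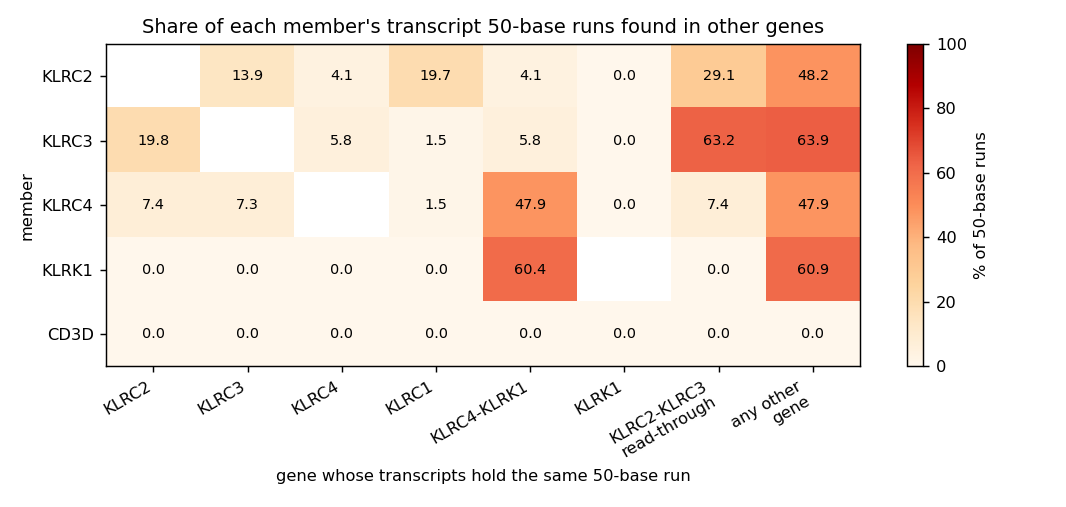
Percentage of the distinct 50-base runs of each member's GENCODE 29 transcripts (rows) that also occur in transcripts of the genes in columns, with any other gene in the last column. KLRC3 has the highest share found elsewhere, 63.9%, and CD3D has 0.0%.

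KLRC3 had the highest mean FPKM of the NKG2 genes in both groups. It stood at 3.97, 3.30 and 3.73 FPKM in the doxycycline libraries, against 0.494, 0.851 and 0.709 FPKM in the vehicle libraries. The groups did not overlap, and the ratio of the means was 5.35 (3.67 ± 0.342 FPKM with doxycycline and 0.685 ± 0.180 FPKM with vehicle, mean ± SD with n = 3 in each group, here and below). KLRC2 stood at 2.20, 1.65 and 2.32 FPKM with doxycycline, against 0.722, 0.692 and 0.522 FPKM with vehicle. Its groups did not overlap either, with a ratio of 3.19 (2.06 ± 0.358 FPKM with doxycycline and 0.645 ± 0.108 FPKM with vehicle). In a bulk library, more transcripts in every cell and more cells with transcripts cannot be told apart.

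KLRC4 had 0.527, 0.599 and 0.619 FPKM in the doxycycline libraries and was listed at 0 in each of the 3 vehicle libraries. No ratio of means is given for it, because a listed 0 in a table without counts can be a failed estimate. It was 1 of 2 entries of the whole table at 0 in all vehicle libraries. KLRK1 had 0.829, 0.649 and 0.934 FPKM with doxycycline, against 0.148, 0.0451 and 0.151 FPKM with vehicle. Its groups did not overlap, and the ratio of means was 7.0 (0.804 ± 0.144 FPKM with doxycycline and 0.115 ± 0.0604 FPKM with vehicle).

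The read-through KLRC4-KLRK1, which contains sequence of both, had 0.935, 0.648 and 0.349 FPKM with doxycycline, against 0.136, 0.40 and 0.144 FPKM with vehicle. Here the groups overlapped, since doxycycline replicate 3 was below vehicle replicate 2. Because fragments of KLRK1, KLRC4 and the read-through cannot be separated over the sequence they share, the 3 entries were also summed. The sum was 2.29, 1.90 and 1.90 FPKM with doxycycline, against 0.284, 0.445 and 0.295 FPKM with vehicle. The summed groups did not overlap, and all 3 entries had a vehicle mean under 0.50 FPKM and so were listed through the doxycycline group only.

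All 4 NKG2 genes together summed to 7.53, 6.19 and 7.60 FPKM with doxycycline, against 1.36, 1.59 and 1.38 FPKM with vehicle, a ratio of 4.92. Adding the read-through lowered this ratio to 4.64. KLRC3 was above KLRC2 in all 3 doxycycline libraries, at 1.80, 2.00 and 1.61 times its FPKM. In the vehicle libraries KLRC3 was at 0.684, 1.23 and 1.36 times KLRC2, so their order differed among the vehicle libraries. KLRC2 made up 29.2, 26.6 and 30.5% of the sum with doxycycline, against 52.9, 43.6 and 37.7% with vehicle. The share of KLRC3 was 52.8, 53.2 and 49.1% with doxycycline, against 36.2, 53.6 and 51.3% with vehicle, where the groups overlapped. By FPKM, KLRC3 ranked above KLRC2 in every doxycycline library, and KLRK1 and KLRC4 followed in that order, both under 1 FPKM. The doxycycline values of these 4 genes did not overlap between neighbours in this order, whereas with vehicle KLRC3 and KLRC2 overlapped.

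CD3D had the highest FPKM of the 5 members in every library. It stood at 8.77, 6.82 and 9.80 FPKM with doxycycline, against 1.66, 1.52 and 1.44 FPKM with vehicle. The groups did not overlap, and the ratio of means was 5.50 (8.46 ± 1.51 FPKM with doxycycline and 1.54 ± 0.112 FPKM with vehicle). The lowest doxycycline library was replicate 2. Replicate 2 was also the lowest doxycycline library for KLRC2, KLRC3 and KLRK1, hence for 4 of the 5 members. Among all genes called higher with doxycycline, replicate 2 was the lowest of the 3 in 32.8%. Replicate 3 was the highest doxycycline library for 4 of the 5 members, KLRC3 being the exception, and for 36.5% of all genes called higher.

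**Figure D2:**
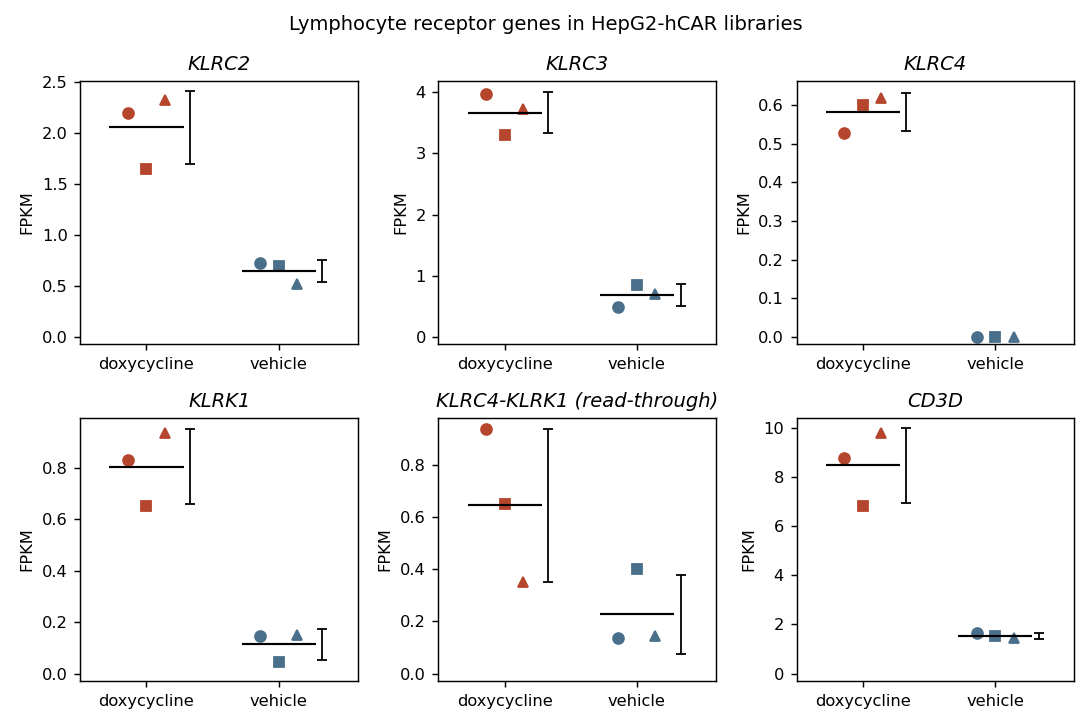
FPKM of the 5 members and of the read-through KLRC4-KLRK1 in each library, with a separate linear vertical axis for each gene; circles, squares and triangles are replicates 1, 2 and 3, horizontal lines are means and error bars are SD (n = 3), left out for KLRC4 with vehicle, which is listed at 0. The doxycycline libraries lie above the vehicle libraries for each of the 5 members, while the read-through overlaps.

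All 5 members had every doxycycline library above every vehicle library, as had 24.6% of all listed genes and 24.8% of those tested below. Since the members were chosen for this difference, nothing is read from that count. On the log2(FPKM + 1) scale, the difference of group means was 1.89 for CD3D, 1.47 for KLRC3, 0.89 for KLRC2, 0.69 for KLRK1 and 0.66 for KLRC4. For KLRC4, listed at 0 with vehicle, this value depends on the added 1 and is no bound. The added 1 compresses differences of genes of low FPKM, so KLRK1, with a larger ratio than CD3D, has a smaller log2 difference. Ranked by ratio of means among the 11454 genes with a vehicle mean above 0, KLRK1 was at position 36, CD3D at 50, KLRC3 at 53 and KLRC2 at 115. By level, CD3D was at percentile 60.9 of all listed genes with doxycycline and 15.1 with vehicle. KLRC3 was at percentile 34.7 with doxycycline and 4.64 with vehicle, and KLRC2 was at 20.5 with doxycycline and 3.99 with vehicle. KLRK1, at percentile 6.24 with doxycycline and 0.253 with vehicle, and KLRC4, at 3.06 with doxycycline, remained among the lowest listed genes.

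The table holds only genes whose larger group mean was at least 0.50 FPKM. KLRK1 and KLRC4 were under this level with vehicle, so they could be listed only through the doxycycline group and had to differ. KLRC2, KLRC3 and CD3D were above it in both groups. Of the 5 members these 3 had a mean of at least 1 FPKM over the 6 libraries, the limit used for the tests of other genes below.

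**Figure D3:**
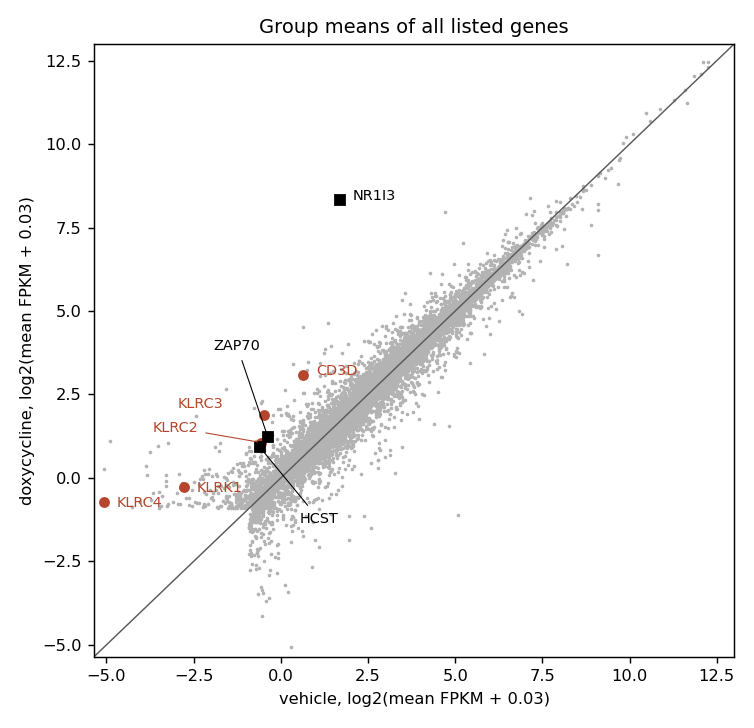
Mean FPKM of the 3 doxycycline libraries (vertical axis) against the 3 vehicle libraries (horizontal axis) for all 11456 listed genes, both as log2(mean FPKM + 0.03); red circles are the 5 members, black squares NR1I3, HCST and ZAP70, and the line marks equal means. The members lie above the line, and the empty corner at the lower left is where both means would be under 0.50 FPKM.

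Genes around the members were tested with limma on log2(FPKM + 1), with Benjamini-Hochberg adjustment over all 10469 genes of at least 1 FPKM, and called at an adjusted p below 0.05. Of all genes tested, 15.2% were called higher and 13.6% lower, 28.8% in all, and the median log2 fold change was 0.01. Within 1 Mb of the NKG2 cluster 8 other genes were listed and 4 tested, of which 1 rose and 1 fell. GABARAPL1, an autophagy gene 149 kb from KLRK1, was the nearest tested gene on that side. It had 8.22, 8.23 and 4.80 FPKM with doxycycline, against 6.14, 2.92 and 1.53 FPKM with vehicle, and its groups overlapped (log2 fold change 0.93, SE 0.40, limma adjusted p = 0.134). It was called without vehicle replicate 1 (adjusted p = 0.0323). MAGOHB, an exon junction complex gene 162 kb from KLRC2, fell to 3.75 ± 0.322 FPKM with doxycycline, against 4.54 ± 0.110 FPKM with vehicle (log2 fold change -0.22, adjusted p = 0.0415). SMIM10L1, 729 kb away, rose to 7.29 ± 0.163 FPKM with doxycycline, against 6.0 ± 0.349 FPKM with vehicle (log2 fold change 0.25, adjusted p = 0.0163). Both calls ended without doxycycline replicate 2 (adjusted p 0.111 and 0.0506) or 3 (0.112 and 0.0544). The MAGOHB call also ended without vehicle replicate 1 (0.0983), 2 (0.0828) or 3 (0.114). Over chromosome 12 as a whole, 91 of 549 tested genes (16.6%) rose and 68 (12.4%) fell.

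Within 1 Mb of CD3D 28 other genes were listed and 27 tested, of which 3 rose and 3 fell, with log2 fold changes of -0.55 to 0.65 and a median of 0.01. UBE4A, a ubiquitin ligase gene that starts 16.8 kb away, had 14.1, 9.22 and 14.1 FPKM with doxycycline, against 14.5, 13.3 and 14.3 FPKM with vehicle (log2 fold change -0.18, adjusted p = 0.448). MPZL2, a cell adhesion gene on the other side at 74.4 kb, fell to 7.93 ± 0.684 FPKM with doxycycline, against 12 ± 1.06 FPKM with vehicle (log2 fold change -0.55, adjusted p = 0.00491). ARCN1, a coatomer subunit gene at 230 kb, rose to 44.4 ± 0.739 FPKM with doxycycline, against 31.8 ± 0.105 FPKM with vehicle (log2 fold change 0.47, adjusted p = 9.10e-05), and MCAM, an adhesion molecule gene at 966 kb, rose with a log2 fold change of 0.34 (adjusted p = 0.00174). Also within 250 kb, MPZL3 (log2 fold change -0.08), ATP5L (0.01), KMT2A (-0.10), TMEM25 (0.01) and IFT46 (0.02) were not called. Over chromosome 11, 88 of 592 tested genes (14.9%) rose and 89 (15.0%) fell.

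**Figure D4:**
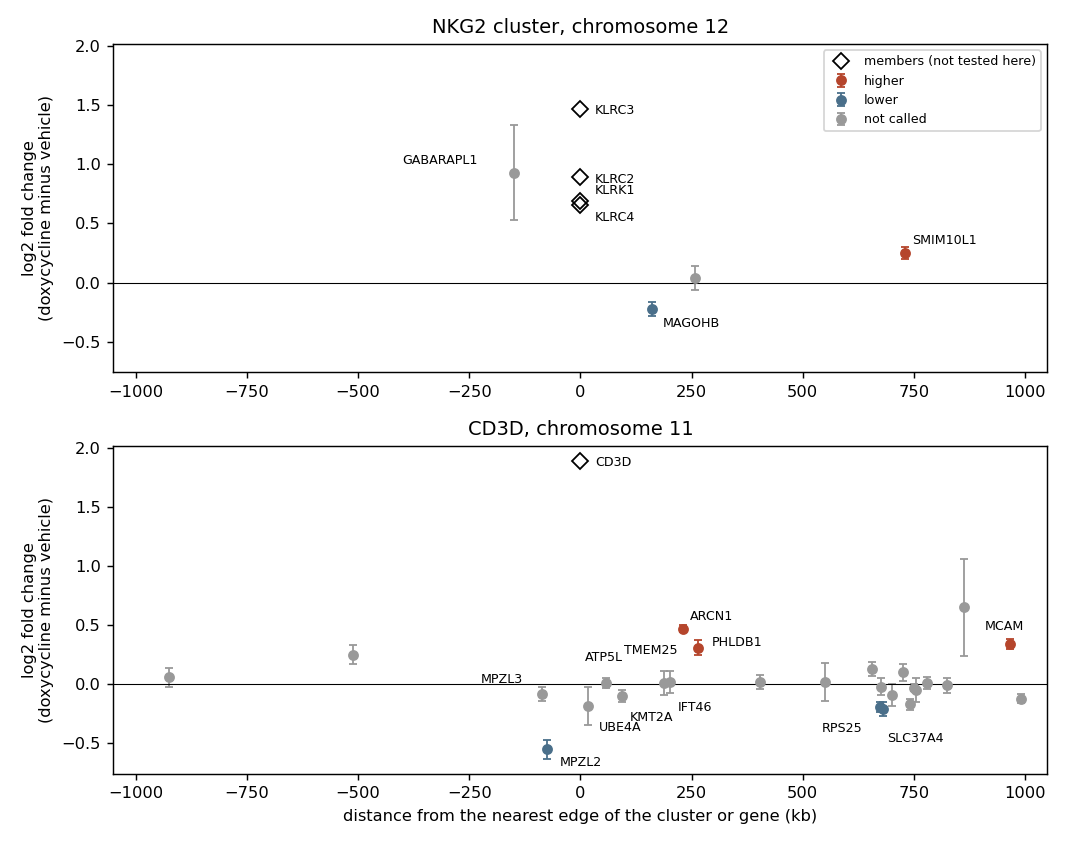
Log2 fold change (doxycycline minus vehicle, log2(FPKM + 1) scale) of tested genes against distance in kb from the nearest edge of the NKG2 cluster (top) or CD3D (bottom); points are limma estimates with SE, coloured by call, and open diamonds are the members, shown without a test. The neighbours of CD3D lie between -0.55 and 0.65, and those of the NKG2 cluster between -0.22 and 0.93.

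Promoters were looked up in RefSeq for all members, and KLRC3, KLRC4 and CD3D were matched. The 250 bases before the annotated start are shown because these genes were higher together. They are given 5′ to 3′ on the minus strand of GRCh38.p14, at chr12:10420596-10420845 for KLRC3, chr12:10409758-10410007 for KLRC4 and chr11:118342706-118342955 for CD3D. Capitals mark AGGTCA or AGTTCA, half-sites of nuclear receptors such as CAR, on either strand.
KLRC3: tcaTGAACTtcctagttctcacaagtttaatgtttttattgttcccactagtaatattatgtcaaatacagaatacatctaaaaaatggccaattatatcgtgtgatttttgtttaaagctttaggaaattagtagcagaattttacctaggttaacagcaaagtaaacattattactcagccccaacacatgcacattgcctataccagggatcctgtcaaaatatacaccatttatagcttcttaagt
KLRC4: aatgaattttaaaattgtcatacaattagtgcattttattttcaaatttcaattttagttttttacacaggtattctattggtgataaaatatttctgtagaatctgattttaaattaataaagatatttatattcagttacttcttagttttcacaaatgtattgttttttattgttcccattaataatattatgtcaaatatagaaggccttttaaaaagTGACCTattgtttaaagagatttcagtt
CD3D: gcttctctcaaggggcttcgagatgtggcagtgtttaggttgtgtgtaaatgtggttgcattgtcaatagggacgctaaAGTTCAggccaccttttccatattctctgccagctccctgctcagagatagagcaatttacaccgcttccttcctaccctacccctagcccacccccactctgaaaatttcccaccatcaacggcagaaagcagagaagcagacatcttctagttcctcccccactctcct

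KLRC4 held 1 AGGTCA, read on the opposite strand and beginning 28 bases before the start, a motif found in 12.1% of 35116 RefSeq promoter windows of the same length. KLRC3 and CD3D each held 1 AGTTCA, which is in 8.8% of these windows. In KLRC3 it lies at the far end of the window, 247 bases before the start on the opposite strand, and in CD3D it lies 171 bases before. None of the 3 windows held the AP-1 motif TGAGTCA or its reverse complement (4.2% of windows). KLRC3 and KLRC4 each held 1 TATAAA on the opposite strand (10.7% of windows on either strand), and CD3D held none. The windows of KLRC3 and KLRC4 are related to each other: a local alignment placed 85 identical bases among 108 aligned bases (78.7%). These matches describe letters in a window and say nothing of binding.

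Partners of the NKG2 receptors were counted in a list of 14 adaptor and signalling genes. Of these, 8 were tested, 3 rose, none fell, and the median log2 fold change was 0.50. Over all genes tested, 15.2% rose, 13.6% fell and the median was 0.01. HCST, the DAP10 adaptor of NKG2D (chromosome 19, 36393382 to 36395279), had 2.40, 1.49 and 1.72 FPKM with doxycycline, against 0.261, 0.836 and 0.780 FPKM with vehicle. It rose with a log2 fold change of 0.83 (SE 0.18, adjusted p = 0.0193), and its groups did not overlap. The HCST call ended without doxycycline replicate 1 (adjusted p = 0.0535) or 3 (0.0507). ZAP70, the kinase of T cell and natural killer receptors (chromosome 2, 98330023 to 98356325), had 2.20, 2.08 and 2.62 FPKM with doxycycline, against 0.750, 0.740 and 0.740 FPKM with vehicle, and rose with a log2 fold change of 0.92 (SE 0.07, adjusted p = 3.45e-04). PTPN11, the phosphatase SHP2, rose 1.11-fold (adjusted p = 0.0351), a call that ended without any 1 of the 6 libraries (0.0516 to 0.0993). GRB2 and CRK, widely expressed adaptors, were not called, and each had 1 library apart from the rest: doxycycline replicate 2 at 31.8 FPKM for GRB2 and 29.7 FPKM for CRK, against 8.13 to 10.2 and 15.3 to 17.8 FPKM in the other libraries. The list's median lies between the log2 fold changes of CRK (0.38) and GRB2 (0.61), which were 0.14 and 0.04 without doxycycline replicate 2. CBL was not called either (log2 fold change 0.65). Its vehicle replicate 3 was at 1.01 FPKM, against 4.44 to 5.69 FPKM in the other libraries. TYROBP, the adaptor of NKG2C, was not analysed here, nor were any of 8 listed killer lectin-like receptor genes outside the members, KLRD1 and KLRC1 among them.

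Of 9 ligand genes of NKG2D and NKG2C 3 were tested, of which 1 rose and none fell. The shares over all genes were 15.2% and 13.6%. MICA, a ligand of NKG2D, had 5.10, 4.81 and 5.66 FPKM with doxycycline, against 3.65, 3.22 and 3.47 FPKM with vehicle, and rose with a log2 fold change of 0.48 (SE 0.07, adjusted p = 0.00405). MICB, its close relative, was at 5.56 ± 0.265 FPKM with doxycycline and 6.40 ± 0.421 FPKM with vehicle (log2 fold change -0.17, adjusted p = 0.0781). HLA-E, the ligand of NKG2C with CD94, was at 35.4 ± 2.76 FPKM with doxycycline and 34.8 ± 1.96 FPKM with vehicle (adjusted p = 0.830).

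Partners of CD3D were counted in a list of 37 genes of the T cell receptor complex and its signalling, of which 7 were tested, 3 rose and 4 fell. Of all genes tested, 15.2% rose and 13.6% fell. CD7, a surface protein of T and natural killer cells, rose to 9.40 ± 1.04 FPKM with doxycycline, against 6.39 ± 0.490 FPKM with vehicle (log2 fold change 0.49, adjusted p = 0.00836), and ZAP70 is counted here too. LCK, the kinase that phosphorylates CD3 chains, rose to 2.72 ± 0.327 FPKM with doxycycline, against 1.80 ± 0.292 FPKM with vehicle (adjusted p = 0.0278), a call that ended without replicate 2 or 3 of either group (0.0796 to 0.0831). NFATC2, a transcription factor downstream of the receptor, fell to 1.02 ± 0.112 FPKM with doxycycline, against 2.60 ± 0.0750 FPKM with vehicle (log2 fold change -0.83, adjusted p = 2.35e-04). SLA2, an adaptor that dampens the receptor's signal, fell with a log2 fold change of -0.41 (adjusted p = 0.0171), a call that ended without vehicle replicate 2 (0.0572) or 3 (0.0526). CSK, the kinase that restrains LCK, fell by 0.13 on the log2 scale (adjusted p = 0.0288), a call that ended without any 1 of the 6 libraries (0.0548 to 0.0819). CD8A, a co-receptor chain of cytotoxic T cells, fell to 1.06 ± 0.113 FPKM with doxycycline, against 1.72 ± 0.155 FPKM with vehicle (adjusted p = 0.00786). CD3E, CD3G and CD247, the other CD3 chains, were not analysed here.

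Markers of whole lymphocytes were set beside the members. Of 29 natural killer and cytotoxic cell markers 2 were tested, and limma called 0 of them at the adjusted threshold and 2 at an unadjusted p below 0.05. Of all 10469 genes tested, 4275 met that unadjusted level, so nothing is read from these 2. PRF1, which encodes perforin, had 7.37, 10.0 and 7.85 FPKM with doxycycline, against 7.22, 3.34 and 1.52 FPKM with vehicle (log2 fold change 1.06, adjusted p = 0.109). It was called without vehicle replicate 1 (adjusted p = 0.0162). XCL1, a chemokine gene, was at 2.39 ± 0.422 FPKM with doxycycline and 1.64 ± 0.243 FPKM with vehicle (adjusted p = 0.0613). The listed markers of this kind summed to 9.65 to 12.1 FPKM in the doxycycline libraries, against 2.88 to 8.99 FPKM in the vehicle libraries. NCR1, a defining natural killer cell receptor gene, was not analysed here. Their part in the levels of the NKG2 genes was not tested.

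Of 20 pan-leukocyte markers 5 were listed and 2 tested, and limma called 0 at the adjusted threshold and 2 at an unadjusted p below 0.05. That unadjusted level was met by 4275 of all 10469 genes tested. CORO1A, an actin regulator of leukocytes, was at 2.38 ± 0.228 FPKM with doxycycline and 2.98 ± 0.180 FPKM with vehicle (adjusted p = 0.0503). It was called under 4 of the alternative settings (adjusted p 0.0422 to 0.0498). ITGB2, an integrin subunit of leukocytes, was at 2.59 ± 0.0829 FPKM with doxycycline and 3.02 ± 0.158 FPKM with vehicle (adjusted p = 0.0663). ITGB2 was called lower by limma without the trend (adjusted p = 0.0445). The other 3 listed markers had means under 1 FPKM over the 6 libraries, and all 3 rose in a fit without that limit (limma adjusted p 6.97e-04 to 0.0402). In that fit 1724 of all 11456 genes were called higher. ARHGDIB and LAPTM5 had vehicle means under 0.50 FPKM, so they were listed only through the doxycycline group and had to be higher there. Nothing is read from their p-values. ARHGDIB had 1.32, 0.942 and 0.935 FPKM with doxycycline, against 0.134, 0.0940 and 0.0801 FPKM with vehicle. Its ratio of means was 10.4 (adjusted p = 6.97e-04). LAPTM5, a lysosomal protein of leukocytes, had 0.828, 0.714 and 0.719 FPKM with doxycycline, against 0.480, 0.418 and 0.441 FPKM with vehicle (adjusted p = 0.0103), and LSP1, a leukocyte actin-binding protein, had 0.972, 0.954 and 1.09 FPKM with doxycycline, against 0.726, 0.718 and 0.809 FPKM with vehicle (adjusted p = 0.0402). The 5 listed markers summed to 7.25 to 8.16 FPKM with doxycycline, against 7.26 to 7.35 FPKM with vehicle. PTPRC, which encodes the leukocyte antigen CD45, and CD2 were not analysed here. Their part in the levels of the members was not tested.

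Of 20 B cell and myeloid markers 7 were listed and 4 tested, of which 2 fell, beside 13.6% of all genes tested. LYZ, lysozyme, fell to 261 ± 7.33 FPKM with doxycycline, against 550 ± 24.0 FPKM with vehicle (log2 fold change -1.07, adjusted p = 2.28e-05), and CD68, a lysosomal protein, fell to 5.08 ± 0.618 FPKM with doxycycline, against 8.50 ± 0.211 FPKM with vehicle (adjusted p = 0.00226). CD14, the lipopolysaccharide co-receptor, had a mean under 1 FPKM and was tested only without the limit on low values. It had 1.85, 1.91 and 2.00 FPKM with doxycycline, against 0.0853, 0.0347 and 0.0533 FPKM with vehicle, and rose in that fit (adjusted p = 1.97e-05). CD14, ARHGDIB, LAPTM5 and LSP1 were singled out after their values were seen. Of these, CD14, ARHGDIB and LAPTM5 had vehicle means under 0.50 FPKM, so they could be listed only through the doxycycline group.

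Of 24 lymphocyte transcription factors 9 were tested, of which 4 rose and 1 fell, beside 15.2% and 13.6% of all genes tested. BATF, an AP-1 family factor of lymphocytes, had 8.47, 9.39 and 9.76 FPKM with doxycycline, against 2.10, 3.21 and 3.05 FPKM with vehicle, and rose with a log2 fold change of 1.44 (SE 0.13, adjusted p = 5.40e-04). ID2, an inhibitor of E proteins needed for natural killer cells, rose to 55.6 ± 21.4 FPKM with doxycycline, against 23.9 ± 2.01 FPKM with vehicle (adjusted p = 0.0348), a call that ended without doxycycline replicate 2 (0.0736) or 3 (0.0999) or without vehicle replicate 1 (0.0980), 2 (0.0756) or 3 (0.0889). ID3, its relative, rose to 90.1 ± 1.57 FPKM with doxycycline, against 60.8 ± 0.523 FPKM with vehicle (adjusted p = 4.22e-05), and EOMES, a T-box factor of natural killer and cytotoxic T cells, rose with a log2 fold change of 0.41 (adjusted p = 0.0111). NFIL3, a factor of natural killer cell development, fell with a log2 fold change of -0.35 (adjusted p = 0.00652).

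Over all 8 immune lists, with each gene counted once, 10 of 34 tested genes (29.4%) rose and 7 (20.6%) fell, beside 15.2% and 13.6% of all genes tested. The median log2 fold change of these 34 genes was 0.13, beside 0.01 over all genes. The lists were chosen with earlier results of these data known, so these shares are a description and no enrichment is read from them. Of the 160 listed genes 119 were not analysed here. Among 14 hepatocyte markers, the labelled lineage, all were tested, 9 fell and none rose. AHSG, fetuin A, fell to 102 ± 8.36 FPKM with doxycycline, against 551 ± 47.8 FPKM with vehicle (adjusted p = 1.84e-05), and APOA1, an apolipoprotein, fell to 85.6 ± 3.41 FPKM with doxycycline, against 294 ± 17.2 FPKM with vehicle (adjusted p = 1.15e-05). The 14 summed to 1131 to 1149 FPKM with doxycycline, against 2452 to 2608 FPKM with vehicle. ALB, albumin, was at 0.373 ± 0.0951 FPKM with doxycycline and 1.87 ± 0.0837 FPKM with vehicle.

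**Figure D5:**
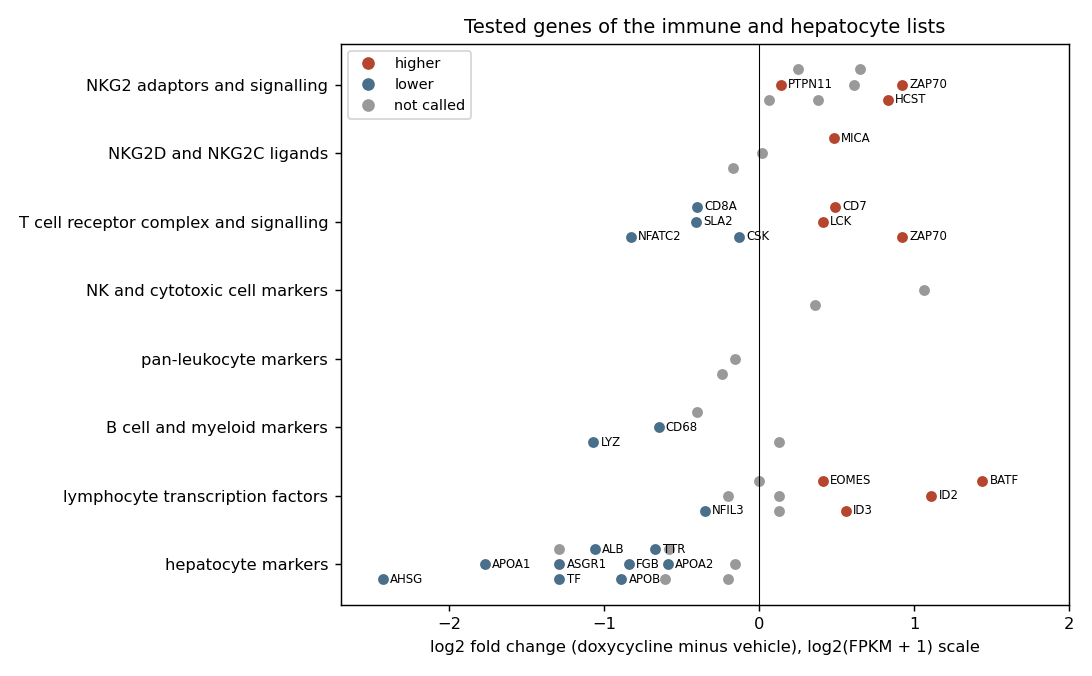
Log2 fold change (doxycycline minus vehicle, log2(FPKM + 1) scale) of each tested gene of 8 lists, coloured by limma call; the members are not shown. Genes called in both directions appear among the T cell receptor and transcription factor lists, and the called hepatocyte markers are all below 0.

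Genes whose profile over the 6 libraries was most like that of each member were found by the Euclidean distance between log2(FPKM + 1) values after each gene's mean was subtracted. Among the 3 nearest to KLRC2 were AQP10 (distance 0.127) and TRPV4 (0.203). For KLRC3 the nearest were HBEGF (0.151), DUSP5 (0.158) and MROH2A (0.205). HBEGF had 4.15, 4.04 and 4.23 FPKM with doxycycline, against 0.746, 1.10 and 0.873 FPKM with vehicle, so its level was close to that of KLRC3 in each group. KLRC4 was nearest to PLCD3 (0.0612), ATP6V0E2 (0.0653) and TNFRSF10D (0.0658), and KLRK1 to TMED6 (0.0625), FOSL1 (0.114) and KRT37 (0.131). The distance includes the group difference for which the members were chosen, and the added 1 compresses that difference at low FPKM. KLRK1, with a ratio of means of 7.0, was thus near TMED6 (1.81) and FOSL1 (1.65) as well as KRT37 (14.3). Shared regulation was not tested. For CD3D the nearest were UGT1A6 (0.269), SLC51B (0.306) and CYP26A1 (0.314). UGT1A6, a glucuronosyltransferase, had 4.58, 3.33 and 4.80 FPKM with doxycycline, against 0.472, 0.638 and 0.573 FPKM with vehicle. No member was among the 3 nearest genes of another member.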

How the data were processed

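Polyadenylated RNA of 6 libraries was sequenced from strand-specific libraries, per the labels' protocols. The deposited values are FPKM, computed by the authors. FastQC, cutadapt, HISAT2, StringTie and GRCh37 are named per the submitters' processing notes. Versions, annotation release and counting strand are not given in the sources used here. Depth is unknown.

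Of entries sharing a symbol, the one with the highest mean was kept. Tests used limma 3.58.1 (R 4.3.3; lmFit and eBayes with trend, two-sided) on log2(FPKM + 1) of the 10469 genes with a mean of at least 1 FPKM over the 6 libraries, with Benjamini-Hochberg adjustment over all of them and a threshold of 0.05. The fit was checked on simulated data. The members and gene lists were chosen with earlier results of these data known, and no test of the members is given, although 3 of them were among the genes fitted. Named are the members, tested genes within 250 kb, the 3 called genes with the largest change per 1 Mb window, leading called and highest genes of each list, and the 3 genes nearest to each member; some of these are given only in counts or are not reported here. Sequences came from GENCODE 29 and RefSeq and were aligned with Biopython 1.88. Alternatives changed the pseudocount, low-value limit, scaling, moderation, replicate block, window and libraries.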

Additional observations from a re-analysis of the deposited data

How the results depend on the processing

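The number of genes called was 3012, and 2203 (minimum mean of 5 FPKM) to 3267 (no limit) under the 15 alternatives, with 2309 to 2378 when 1 library was left out. Same-numbered libraries did not visibly deviate together (correlations 0.015, -0.032 and 0.092), and the labels state no pairing. These correlations cannot exclude a small shared effect of culture or day. A fit with the replicate block called 2343. It called 13 immune list genes against 17, 2 NKG2 cluster neighbours against 2 and 5 CD3D neighbours against 6. The 2 cluster neighbours were not the same genes: MAGOHB lost its call (adjusted p = 0.0847) and GABARAPL1 gained one (0.0470), so both called were higher. The block also ended the calls of HCST (0.0726), PTPN11 (0.0755), LCK (0.0911), SLA2 (0.0600) and CSK (0.0808). The immune list count was 9 of 14 tested at a minimum of 5 FPKM and 12 to 16 without 1 library.

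Neighbours of the NKG2 cluster called were 1 at a minimum of 5 FPKM, 1 of 2 within 250 kb, 5 of 11 within 2 Mb and 0 to 2 without 1 library. The 0 was found by limma without doxycycline replicate 2 (2 at an unadjusted p below 0.05) and without doxycycline replicate 3 (3). Of all 10469 genes, 3852 and 3843 met that unadjusted level in these fits. Neighbours of CD3D called were 2 of 8 within 250 kb, 14 of 44 within 2 Mb and 4 to 6 without 1 library.

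With pseudocounts of 0.1 and 0.5 in place of 1, the log2 difference became 1.53 and 1.15 for KLRC2, 2.29 and 1.82 for KLRC3, 2.77 and 1.11 for KLRC4, 2.10 and 1.08 for KLRK1 and 2.37 and 2.12 for CD3D, since a smaller pseudocount compresses low values less. Without 1 library it was 0.83 to 0.99 for KLRC2, 1.39 to 1.54 for KLRC3, 0.64 to 0.69 for KLRC4, 0.64 to 0.76 for KLRK1 and 1.78 to 2.02 for CD3D. For KLRC4, listed at 0 in all vehicle libraries, this range reflects the doxycycline libraries alone, and the size of the difference is set by the pseudocount.

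Of 40 called genes under the naming rule, 32 held their call in every alternative that gave a value. Signs reversed only among uncalled genes. Without 1 library the log2 fold change was -0.27 to 0.01 for UBE4A (above 0 without doxycycline replicate 2), -0.02 to 0.04 for ATP5L (below 0 without doxycycline replicate 3 and vehicle replicates 2 and 3), -0.07 to 0.06 for TMEM25 and -0.05 to 0.08 for IFT46 (both below 0 without doxycycline replicate 3 and vehicle replicate 2) and -0.02 to 0.08 for HLA-E (below 0 without replicate 3 of either group). It was -0.0016 for ATP5L with median-ratio scaling, and -0.0031 for ATP5L and -0.01 for TMEM25 with quantile normalization. The cause was not tested.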
